A study of Mus musculus with 18 samples.

Results

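The liver makes most of the complement, coagulation and fibrinolysis proteins of blood plasma, and the genes described here are 44 such factors of hepatocytes, taken by gene symbol. Of these, 43 had a row in the table of 16245 genes, 21 of the complement system and 22 of coagulation and fibrinolysis, and all 43 received a test in every comparison. The symbol Protz had no row. Proz, the symbol of protein Z, had one and is given with the other coagulation genes. Liver RNA came from 18 male wild-type mice, 6 per group (strain C57BL/6 in the labels, C57BL/6J in the methods of the study), and each library stands for 1 liver. All animals ate a NASH diet, a fat- and fructose-rich food that brings on fatty liver with inflammation and scarring, and lived at about 29 °C from the age of 8 weeks, one to a cage during treatment. The Vehicle group received the injection buffer. The GDF15 group received recombinant GDF15, a stress cytokine that lowers food intake through a receptor in the hindbrain, under the skin once a day for several weeks. PairFed mice were given only as much food as the GDF15 mice had eaten on the previous day, so that Vehicle against PairFed measures eating less and GDF15 against PairFed measures what GDF15 changed beyond that. The labels list several doses without saying which one these livers had, and the text and a figure legend of the study name different ones, so no dose is given.

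Complement is a cascade of plasma proteases. The classical pathway (C1r, C1s, C4, C2) and the lectin pathway (mannose-binding lectins and the MASP proteases) converge with the alternative pathway (factor B, properdin) on C3, and the terminal components C5 to C9 then build a pore in the target membrane, while C1 inhibitor, factor I and C4b-binding protein hold the cascade in check. Coagulation runs through proteases to thrombin, which turns fibrinogen into fibrin. Antithrombin, protein C and protein S limit it, and plasmin dissolves the clot. Several of these genes, among them the fibrinogen chains and C3, are acute phase genes of the liver, which interleukin-6 acting through STAT3 and C/EBP factors raises in inflammation.

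The promoters of 6 members are shown because these genes carried the largest log2 fold changes or stood apart in 1 GDF15 liver. Each run reads 5′ to 3′ on the strand of its gene, from RefSeq on GRCm38.p6. It covers the 250 bases before the RefSeq start, or for Fga the first 173 of these, up to an upstream start of that gene in GENCODE. Capitals mark matches to any of 5 motifs searched on both strands.
Fga, chr3:83025903-83026075, plus strand: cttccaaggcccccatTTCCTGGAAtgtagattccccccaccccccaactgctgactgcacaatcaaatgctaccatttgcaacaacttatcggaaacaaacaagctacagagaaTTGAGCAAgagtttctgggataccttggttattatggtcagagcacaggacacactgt
Fgb, chr3:83049864-83050113, minus strand: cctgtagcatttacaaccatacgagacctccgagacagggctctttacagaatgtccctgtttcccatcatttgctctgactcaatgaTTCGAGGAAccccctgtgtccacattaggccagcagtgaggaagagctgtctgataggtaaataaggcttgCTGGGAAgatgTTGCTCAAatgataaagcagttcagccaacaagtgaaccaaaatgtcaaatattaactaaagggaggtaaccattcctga
Fgg, chr3:83007474-83007723, plus strand: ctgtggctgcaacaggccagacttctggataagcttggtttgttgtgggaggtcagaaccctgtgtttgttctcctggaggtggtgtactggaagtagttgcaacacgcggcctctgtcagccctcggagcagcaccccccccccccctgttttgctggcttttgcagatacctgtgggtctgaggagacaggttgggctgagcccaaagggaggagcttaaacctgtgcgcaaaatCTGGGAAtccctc
C3, chr17:57228137-57228386, minus strand: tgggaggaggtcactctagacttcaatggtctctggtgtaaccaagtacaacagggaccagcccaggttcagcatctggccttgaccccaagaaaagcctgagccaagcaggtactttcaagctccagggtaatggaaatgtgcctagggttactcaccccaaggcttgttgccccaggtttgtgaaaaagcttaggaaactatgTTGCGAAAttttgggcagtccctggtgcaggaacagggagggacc
F7, chr8:13025784-13026033, plus strand: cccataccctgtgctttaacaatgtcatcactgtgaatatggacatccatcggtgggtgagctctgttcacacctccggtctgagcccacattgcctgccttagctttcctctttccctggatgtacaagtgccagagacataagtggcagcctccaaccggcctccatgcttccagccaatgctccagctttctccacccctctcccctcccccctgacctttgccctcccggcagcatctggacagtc
C8b, chr4:104766067-104766316, plus strand: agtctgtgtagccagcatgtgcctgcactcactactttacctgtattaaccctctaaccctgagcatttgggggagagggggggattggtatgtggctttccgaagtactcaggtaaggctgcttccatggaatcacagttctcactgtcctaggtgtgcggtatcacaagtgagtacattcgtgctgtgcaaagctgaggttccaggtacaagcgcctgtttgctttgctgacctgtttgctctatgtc

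The C/EBP motif TTGCNNAA (N is any base) began 135 bases before the RefSeq start of Fga, 80 before that of Fgb and 45 before that of C3. The STAT motif TTCNNNGAA began 234 bases before the start of Fga and 162 before that of Fgb. The interleukin-6 type II motif CTGGGAA began 91 bases before the start of Fgb and 13 before that of Fgg. The windows of F7 and C8b held none of the 5 motifs. Over the 34 members with a promoter in the RefSeq table, 10 (29.4%) held the C/EBP motif in the 250 bases before the start, against 9.55% of all 27025 promoters. The STAT motif was in 6 members (17.6%, against 7.18% of all promoters) and the interleukin-6 type II motif, which a STAT match can contain, in 5 (14.7%, against 9.08%). The HNF1 motif TAATNATTA was in F13b and Hc (5.88%, against 0.596%), and the HNF4 motif CAAAGTCCA was in 0 members (against 0.381%). These matches are descriptions of sequence. C4b, Cfi, Proc, Serping1, C2, Masp1, Cfb, Plg and Kng1 had no entry.

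Library totals ran from 16508864 to 35301853 counts. Albumin, the defining product of hepatocytes, took 5.02 to 7.84% of counts in every library, and 12 hepatocyte markers summed to 95595 to 138120 CPM (counts scaled to the library total). The 3 adipocyte markers in the table, Adipoq, Plin1 and Retn, stayed at 0 to 0.349 CPM in sum. GDF15 replicate 4 stood apart from the other GDF15 livers for many members, so results are also given without it.

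Most of the 43 genes were higher with GDF15, and none passed the test for pair-feeding alone. In DESeq2, 34 members rose and 1, Pros1, fell against Vehicle, at an adjusted p under 0.05 over all genes. Over all genes 14.3% rose and 15.8% fell in that comparison. Against PairFed, 30 members rose (11.8% of all genes) and 0 fell (12.2% of all genes). No member was lower against PairFed at an unadjusted p under 0.05 either (0 in DESeq2, 0 in edgeR, whose adjusted calls were 0 as well). All of the 43 genes except Cfp (mean 278) averaged 1000 or more normalized counts, many of them far more. Such abundant genes were called higher more often: of 3039 genes averaging 1000 or more, 34.5% rose against Vehicle and 28.5% against PairFed. Because both comparisons use the same GDF15 livers, the 29 members called higher in both are no second line of evidence.

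The changes were mostly below 2-fold. The median member had a log2 fold change of 0.38 against Vehicle and 0.34 against PairFed, beside −0.002 and −0.005 over all genes and 0.10 and 0.079 over the 3039 abundant genes. The sign was positive for 41 of 43 members in each comparison. With the added requirement of an absolute log2 fold change above 1, only C8b passed, in both comparisons (5.66% of all genes passed against Vehicle and 2.98% against PairFed). All 6 GDF15 livers lay above all 6 Vehicle livers for 25 members, a pattern seen in 5.2% of all genes, and above all 12 other livers for 23 members (2.94% of all genes).

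Summed over the 43 genes, the share of all counts was 3.39 to 3.83% in Vehicle livers (median 3.71%), 3.53 to 3.77% in PairFed livers (median 3.63%) and 4.16 to 5.99% in GDF15 livers (median 4.45%). The groups of GDF15 and of the other livers did not overlap, and the highest share belonged to GDF15 replicate 4. The log2 ratio of the summed CPM was 0.35 against Vehicle, and 0.52 when counts were divided by DESeq2 size factors instead.

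The direction of many members depended on what they were measured against. The 12 hepatocyte markers themselves rose with GDF15 (9 of 12 against each control group, median log2 fold change 0.39 in both). When the size factors came from these markers alone, the median of all genes moved to −0.41 in each comparison, and 11 members were higher and 11 lower against Vehicle, and 10 higher and 13 lower against PairFed. Of all 16245 genes, 9845 were then called in either direction against Vehicle and 9781 against PairFed. With the usual DESeq2 size factors these counts were 4885 and 3894. Counts of calls on this scale are to be read beside that background. This scale, called the hepatocyte scale here, reads a member against the other products of hepatocytes. On it 9 members were higher in both comparisons: C3, C8b, Serping1, F7, Fga, Fgb, Fgg, Plg and Serpinf2. A further 10 were lower in both: C2, Cfb, Cfp, C4bp, C1s1, Masp2, F9, F12, F13b and Pros1. This scale was not fitted without GDF15 replicate 4, which stood apart from the other GDF15 livers for C3, Serping1, Fga, Fgb, Fgg and Plg. Against albumin counts alone, the log2 ratio of C3 ran from −3.81 to −2.86 with GDF15, −3.80 to −3.53 in Vehicle and −4.15 to −3.22 in PairFed livers. The ratio of the summed members also overlapped between groups, while GDF15 livers lay above all others for F7 and C8b. In whole liver, fewer cells of a type and less RNA per cell cannot be told apart.

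**Figure D1:**
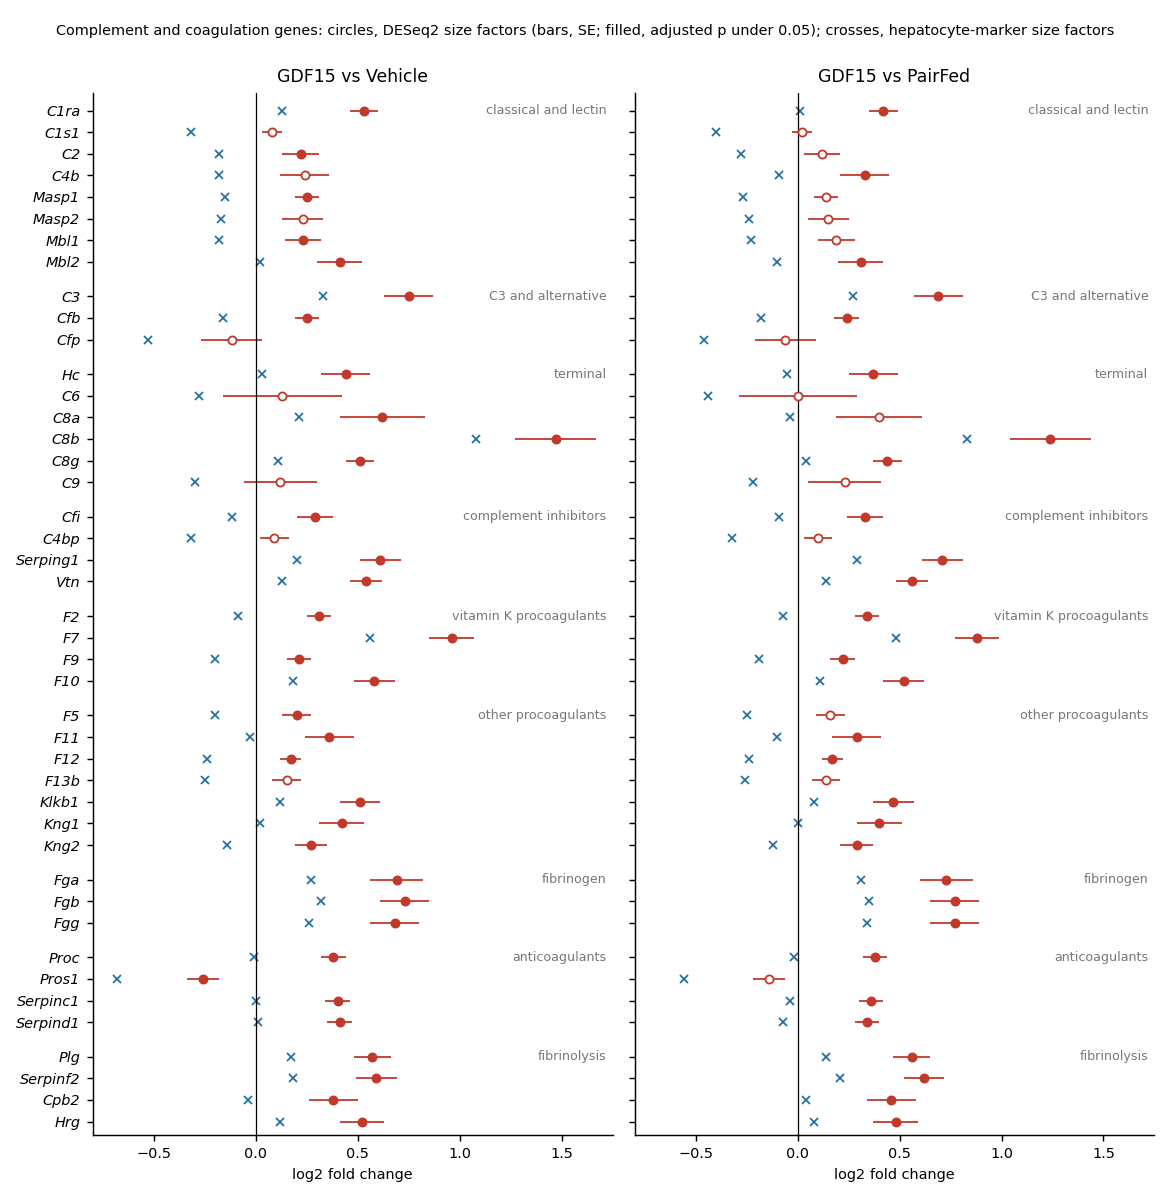
Log2 fold change of each of the 43 genes (x axis) for GDF15 against Vehicle (left) and PairFed (right), grouped by role, with circles and SE bars from DESeq2 with all 18 livers, filled at an adjusted p under 0.05, and crosses on the hepatocyte scale. Circles of 41 genes lie right of 0 in each panel with C8b farthest out. Among members called on either scale, the crosses of 17 against Vehicle and 22 against PairFed change side, as do those of some uncalled members.

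Of the 8 members of the classical and lectin pathways, 5 rose against Vehicle and 3 against PairFed, whereas on the hepatocyte scale 1 (C1ra) was higher and 3 lower against Vehicle and 5 were lower against PairFed. C1ra, the protease that activates C1s, had normalized counts (estimated counts divided by the size factor of the library) of 4572 to 5842 in Vehicle livers (median 5348), 4976 to 6135 in PairFed livers (median 5794) and 6875 to 8131 in GDF15 livers (median 7451). Every GDF15 liver lay above the 12 others, with log2 fold changes of 0.53 ± 0.07 against Vehicle (adjusted p = 5.11e-12) and 0.42 ± 0.07 against PairFed (adjusted p = 1.37e-07). Its partner C1s1, whose gene lies 6.9 kb away on chromosome 6, had values of only 0.08 ± 0.05 against Vehicle (adjusted p = 0.175) and 0.02 ± 0.05 against PairFed (adjusted p = 0.827) and overlapped in all groups. Without Vehicle replicate 6, the C1s1 difference from Vehicle passed the threshold at 0.12. C1rb and C1s2, the near-copies of these genes, were listed close to 0, at medians of 0 to 1.47 normalized counts.

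Mbl2, a mannose-binding lectin, was at 5166 to 7705 in Vehicle livers (median 6715), 5537 to 7773 in PairFed livers (median 7298) and 7903 to 9923 in GDF15 livers (median 8768). All 6 GDF15 livers exceeded all others, with log2 fold changes of 0.41 ± 0.11 against Vehicle (adjusted p = 0.00103) and 0.31 ± 0.11 against PairFed (adjusted p = 0.0207), although the call against PairFed was lost without GDF15 replicate 4 (0.27) or PairFed replicate 1 (0.25). A further 3 members passed against Vehicle only. Masp1, a lectin pathway protease, differed by 0.25 ± 0.06 against Vehicle (adjusted p = 3.00e-04) and 0.14 ± 0.06 against PairFed (adjusted p = 0.0788), and passed against PairFed without PairFed replicate 3 (0.17). Mbl1, the second mannose-binding lectin, differed by 0.23 ± 0.09 against Vehicle (adjusted p = 0.029) and 0.19 ± 0.09 against PairFed (adjusted p = 0.0817), and leaving out any of 7 libraries ended its call against Vehicle, with values from 0.17 to 0.23, while it passed against PairFed without GDF15 replicate 3 (0.22) or PairFed replicate 6 (0.23). C2, which C1s cleaves, differed by 0.22 ± 0.09 against Vehicle (adjusted p = 0.0434) and 0.12 ± 0.09 against PairFed (adjusted p = 0.315), and any of 9 libraries ended that call.

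C4b, whose product is a subunit of the classical C3 convertase, passed against PairFed only. Its log2 fold changes were 0.24 ± 0.12 against Vehicle (adjusted p = 0.0984) and 0.33 ± 0.12 against PairFed (adjusted p = 0.0191). Normalized counts were 37357 to 44460 in Vehicle livers (median 41201), 34291 to 43626 in PairFed livers (median 37594) and 42549 to 73250 in GDF15 livers (median 43160), and the 5 GDF15 livers other than replicate 4 reached at most 46405. Without GDF15 replicate 4 the fold changes were 0.08 and 0.18, and without PairFed replicate 3 the call against PairFed was lost (0.30). C4a, its near-identical copy, had no row, so reads of both may sit in C4b. Masp2, the other MASP protease, did not pass at 0.23 ± 0.10 against Vehicle (adjusted p = 0.0539) and 0.15 ± 0.10 against PairFed (adjusted p = 0.234), but passed against Vehicle without Vehicle replicate 3 (0.27), GDF15 replicate 1 (0.25) or GDF15 replicate 5 (0.27).

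C3 and factor B rose in both comparisons and properdin did not pass, whereas on the hepatocyte scale C3 was higher and factor B and properdin lower. C3, the hub of the cascade and the member with the highest mean count (120410), was at 85020 to 104565 in Vehicle livers (median 97828), 89445 to 115849 in PairFed livers (median 99985) and 128562 to 246823 in GDF15 livers (median 151215). The GDF15 livers lay above all others and GDF15 replicate 4 was highest by far. The log2 fold changes were 0.75 ± 0.12 against Vehicle (adjusted p = 4.76e-08) and 0.69 ± 0.12 against PairFed (adjusted p = 6.97e-07), 0.59 and 0.54 without that liver, and 0.33 and 0.27 on the hepatocyte scale.

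Cfb, the protease of the alternative pathway convertase, was at 20621 to 23152 in Vehicle livers (median 21438), 20875 to 22617 in PairFed livers (median 21749) and 23242 to 31607 in GDF15 livers (median 24221). The GDF15 livers lay just above the others, with log2 fold changes of 0.25 ± 0.06 against Vehicle (adjusted p = 9.29e-04) and 0.24 ± 0.06 against PairFed (adjusted p = 0.0019), which turned to −0.16 and −0.18 on the hepatocyte scale. Cfp, or properdin, which white blood cells make, had the lowest level per length of all members (8.36 CPM per kb of transcript). Its log2 fold changes were −0.12 ± 0.15 against Vehicle (adjusted p = 0.585) and −0.06 ± 0.15 against PairFed (adjusted p = 0.818).

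Of the 6 terminal components, 4 rose against Vehicle and 3 against PairFed, and on the hepatocyte scale C8b alone passed, higher in both comparisons. C8b, the beta chain of C8, showed the largest log2 fold changes of the 43 genes. Its normalized counts were 699 to 1627 in Vehicle livers (median 1164), 908 to 1637 in PairFed livers (median 1485) and 2387 to 4366 in GDF15 livers (median 3090). The lowest GDF15 liver exceeded the highest of the others, and the log2 fold changes were 1.47 ± 0.20 against Vehicle (adjusted p = 1.35e-11) and 1.24 ± 0.20 against PairFed (adjusted p = 2.89e-08). They were 1.41 and 1.18 without GDF15 replicate 4, and 1.08 and 0.83 on the hepatocyte scale.

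The other C8 chains had smaller log2 fold changes. C8g was at 5439 to 6764 in Vehicle livers (median 5877), 5701 to 6874 in PairFed livers (median 6152) and 8253 to 8857 in GDF15 livers (median 8551). The GDF15 livers again lay above all others, and C8g rose by 0.51 ± 0.07 against Vehicle (adjusted p = 1.66e-12) and 0.44 ± 0.07 against PairFed (adjusted p = 1.19e-09). For C8a, whose gene lies 11.1 kb from C8b on the opposite strand, the values were 4527 to 7665 in Vehicle livers (median 6394), 5198 to 10594 in PairFed livers (median 6242) and 6183 to 15412 in GDF15 livers (median 8986), and the groups overlapped. Its log2 fold changes were 0.62 ± 0.21 against Vehicle (adjusted p = 0.0105) and 0.40 ± 0.21 against PairFed (adjusted p = 0.138), the first of which was lost without GDF15 replicate 4 (0.44, adjusted p = 0.0565). The second passed without PairFed replicate 2 (0.53).

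Because both genes are read in the same library, the ratio of C8b to C8a needs no scaling. Its log2 was −2.46 ± 0.236 (SD, n = 6) in Vehicle livers, −2.40 ± 0.361 in PairFed livers and −1.55 ± 0.340 in GDF15 livers. It lay at −1.99 to −1.10 with GDF15, above all Vehicle livers (−2.74 to −2.20) but not above all PairFed livers (−2.86 to −1.83). Against C8g, the log2 ratio of C8b was −2.42 ± 0.402, −2.23 ± 0.327 and −1.44 ± 0.344 in the same order. The log2 ratio of C8a to C8g had means of 0.0396, 0.166 and 0.111 and overlapped in all groups. The differences in these ratios were not tested.

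Hc, the mouse gene for C5, was at 11556 to 15181 in Vehicle livers (median 13576), 12264 to 16791 in PairFed livers (median 13638) and 15421 to 26149 in GDF15 livers (median 16999). All GDF15 livers exceeded the Vehicle livers but only 3 exceeded all PairFed livers, and the log2 fold changes were 0.44 ± 0.12 against Vehicle (adjusted p = 0.00187) and 0.37 ± 0.12 against PairFed (adjusted p = 0.0113). C6 and C9, components of the pore, did not pass. Their log2 fold changes were 0.13 ± 0.29 against Vehicle (adjusted p = 0.765) and 0.00 ± 0.29 against PairFed (adjusted p = 0.995) for C6 and 0.12 ± 0.18 against Vehicle (adjusted p = 0.659) and 0.23 ± 0.18 against PairFed (adjusted p = 0.36) for C9, with wide overlap.

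Among 4 regulators of complement, Cfi, Serping1 and Vtn rose in both comparisons and C4bp did not pass, whereas on the hepatocyte scale Cfi did not pass, C4bp was lower in both comparisons, and Vtn passed only against PairFed. Serping1, the gene of C1 inhibitor, was at 10455 to 13091 in Vehicle livers (median 11972), 10156 to 13261 in PairFed livers (median 10578) and 15644 to 24402 in GDF15 livers (median 16798). No GDF15 liver overlapped the others. Its log2 fold changes were 0.61 ± 0.10 against Vehicle (adjusted p = 9.76e-08) and 0.71 ± 0.10 against PairFed (adjusted p = 4.99e-10), and 0.20 and 0.29 on the hepatocyte scale. Read against C1s1, a protease it blocks, the log2 count ratio was −0.235 ± 0.123 (SD, n = 6) in Vehicle livers, −0.402 ± 0.155 in PairFed livers and 0.275 ± 0.196 in GDF15 livers, again with no overlap between GDF15 and the rest.

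Vtn, vitronectin, which binds the terminal complex and keeps it from membranes, was at 32781 to 39258 in Vehicle livers (median 35699), 33619 to 38449 in PairFed livers (median 34497) and 48164 to 66878 in GDF15 livers (median 48846). Apart from replicate 4 the GDF15 livers fell in a narrow band up to 50092, above all others, and the log2 fold changes were 0.54 ± 0.08 against Vehicle (adjusted p = 5.61e-10) and 0.56 ± 0.08 against PairFed (adjusted p = 1.48e-10). Cfi, the protease that inactivates C3b and C4b, was at 10057 to 12418 in Vehicle livers (median 11738), 9843 to 12078 in PairFed livers (median 11125) and 12447 to 17991 in GDF15 livers (median 13119). The GDF15 livers lay above all others, though only just, and its log2 fold changes were 0.29 ± 0.09 against Vehicle (adjusted p = 0.00527) and 0.33 ± 0.09 against PairFed (adjusted p = 0.00173). C4bp, the cofactor of factor I, gave 0.09 ± 0.07 against Vehicle (adjusted p = 0.346) and 0.10 ± 0.07 against PairFed (adjusted p = 0.312).

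The 4 vitamin K dependent procoagulants F2, F7, F9 and F10 all rose in both comparisons, whereas on the hepatocyte scale F7 and F10 were higher and F2 and F9 lower against Vehicle, and F7 higher and F9 lower against PairFed. F7, the protease that starts clotting with tissue factor, was at 1060 to 1593 in Vehicle livers (median 1269), 1071 to 1561 in PairFed livers (median 1365) and 2180 to 2919 in GDF15 livers (median 2408). The GDF15 livers lay clear of the rest. Its log2 fold changes, 0.96 ± 0.11 against Vehicle (adjusted p = 2.79e-15) and 0.88 ± 0.11 against PairFed (adjusted p = 5.76e-13), had the lowest p of all members in both comparisons, and were 0.56 and 0.48 on the hepatocyte scale.

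F10, which makes thrombin and whose gene starts 1.5 kb after the end of F7 on the same strand of chromosome 8, was at 6433 to 8868 in Vehicle livers (median 7684), 7097 to 8856 in PairFed livers (median 7799) and 10070 to 14640 in GDF15 livers (median 10688). It rose by 0.58 ± 0.10 against Vehicle (adjusted p = 3.69e-08) and 0.52 ± 0.10 against PairFed (adjusted p = 1.69e-06), with the GDF15 livers above all others. The log2 ratio of F7 to F10 counts was −2.58 ± 0.0742 (SD, n = 6) in Vehicle livers, −2.57 ± 0.149 in PairFed livers and −2.19 ± 0.0915 in GDF15 livers, whose range of −2.33 to −2.05 lay above the ranges of −2.67 to −2.48 and −2.73 to −2.35.

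F2, prothrombin, was at 31981 to 39699 in Vehicle livers (median 35790), 31356 to 37987 in PairFed livers (median 35114) and 41328 to 49182 in GDF15 livers (median 43258), and rose by 0.31 ± 0.06 against Vehicle (adjusted p = 9.52e-06) and 0.34 ± 0.06 against PairFed (adjusted p = 1.69e-06). The GDF15 livers lay above all others, yet on the hepatocyte scale the values were −0.09 and −0.07. F9, the haemophilia B factor, was at 3534 to 4294 in Vehicle livers (median 3914), 3581 to 4081 in PairFed livers (median 3921) and 3971 to 5015 in GDF15 livers (median 4523). There 5 of 6 GDF15 livers exceeded all Vehicle livers and 5 all PairFed livers, and the log2 fold changes were 0.21 ± 0.06 against Vehicle (adjusted p = 0.00682) and 0.22 ± 0.06 against PairFed (adjusted p = 0.00376), which turned to −0.20 and −0.19 on the hepatocyte scale.

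Of 7 other procoagulants, 6 rose against Vehicle and 5 against PairFed, whereas on the hepatocyte scale F12 and F13b were lower against Vehicle and F5, F12 and F13b lower against PairFed. Klkb1, plasma kallikrein, was at 3792 to 5253 in Vehicle livers (median 4816), 3856 to 5151 in PairFed livers (median 4969) and 5386 to 7175 in GDF15 livers (median 6728) and rose by 0.51 ± 0.10 against Vehicle (adjusted p = 2.98e-06) and 0.47 ± 0.10 against PairFed (adjusted p = 1.95e-05). Unlike most members it was lowest in replicate 4 among the GDF15 livers. F11, the neighbour of Klkb1 at 4.7 kb on chromosome 8, was at 861 to 1153 in Vehicle livers (median 977), 879 to 1384 in PairFed livers (median 1009) and 1059 to 1528 in GDF15 livers (median 1318). The groups overlapped, the log2 fold changes were 0.36 ± 0.12 against Vehicle (adjusted p = 0.00847) and 0.29 ± 0.12 against PairFed (adjusted p = 0.0462), and the call against PairFed was lost when any of 8 libraries was left out, with values from 0.24 to 0.30.

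Kng1, a kininogen that carries bradykinin, was at 27531 to 37781 in Vehicle livers (median 31902), 26742 to 36698 in PairFed livers (median 34030) and 39268 to 57281 in GDF15 livers (median 40407). It rose by 0.42 ± 0.11 against Vehicle (adjusted p = 8.68e-04) and 0.40 ± 0.11 against PairFed (adjusted p = 0.0021), and 5 of the 6 GDF15 livers lay at or under 41876. Kng2, the second kininogen gene 28.4 kb from Kng1 on chromosome 16, was at 5551 to 6521 in Vehicle livers (median 6047), 5336 to 6637 in PairFed livers (median 6095) and 6087 to 8632 in GDF15 livers (median 7270) and rose by 0.27 ± 0.08 against Vehicle (adjusted p = 0.00339) and 0.29 ± 0.08 against PairFed (adjusted p = 0.00224). Salmon divides reads that fit both kininogens between them, so their single levels are less certain than their sum.

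F12, the contact factor, was at 9949 to 11021 in Vehicle livers (median 10433), 9669 to 11119 in PairFed livers (median 10409) and 10903 to 13338 in GDF15 livers (median 11544), and rose by 0.17 ± 0.05 against Vehicle (adjusted p = 0.00785) and 0.17 ± 0.05 against PairFed (adjusted p = 0.00676). F5, the cofactor of factor Xa, passed only against Vehicle at 0.20 ± 0.07 against Vehicle (adjusted p = 0.0138), a call lost without Vehicle replicate 2 (0.16), beside 0.16 ± 0.07 against PairFed (adjusted p = 0.0632). F13b, the carrier subunit of factor XIII, did not pass at 0.15 ± 0.07 against Vehicle (adjusted p = 0.0944) and 0.14 ± 0.07 against PairFed (adjusted p = 0.129).

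The 3 fibrinogen chains rose in both comparisons and stayed higher in both on the hepatocyte scale, by 0.26 to 0.32 and 0.31 to 0.35. Fga, the alpha chain, was at 56986 to 77588 in Vehicle livers (median 65412), 57771 to 69528 in PairFed livers (median 66428) and 87283 to 165347 in GDF15 livers (median 99158). Fgb, the beta chain, was at 50533 to 69334 in Vehicle livers (median 57823), 51659 to 63883 in PairFed livers (median 57153) and 80928 to 144899 in GDF15 livers (median 90859). Fgg, the gamma chain, was at 43168 to 59175 in Vehicle livers (median 50222), 41833 to 51689 in PairFed livers (median 47696) and 64956 to 121091 in GDF15 livers (median 74862). In each the 6 GDF15 livers lay above the 12 others and replicate 4 stood far above the other GDF15 livers.

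The log2 fold changes of the chains were close to each other. Fga changed by 0.69 ± 0.13 against Vehicle (adjusted p = 1.62e-06) and 0.73 ± 0.13 against PairFed (adjusted p = 4.31e-07). Fgb changed by 0.73 ± 0.12 against Vehicle (adjusted p = 8.38e-08) and 0.77 ± 0.12 against PairFed (adjusted p = 2.60e-08). Fgg changed by 0.68 ± 0.12 against Vehicle (adjusted p = 8.26e-07) and 0.77 ± 0.12 against PairFed (adjusted p = 3.25e-08). Without GDF15 replicate 4 they were 0.52, 0.59 and 0.53 against Vehicle and 0.57, 0.62 and 0.62 against PairFed. The genes sit side by side on chromosome 3, with 11 kb from Fgg to Fga and 6.5 kb from Fga to Fgb, and Fgb is on the opposite strand. Relative to Fga, the log2 count ratio of Fgb had means of −0.179, −0.171 and −0.129 in Vehicle, PairFed and GDF15 livers and that of Fgg −0.406, −0.447 and −0.408, all with SDs of 0.0134 to 0.0622. Per length of transcript, Fgg (1641 CPM per kb) and Fga (1477) were the highest of the 43 members on the mean of all libraries. The chains together took 0.769 to 0.981% of counts in Vehicle livers, 0.779 to 0.891% in PairFed livers and 1.05 to 1.85% in GDF15 livers.

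**Figure D2:**
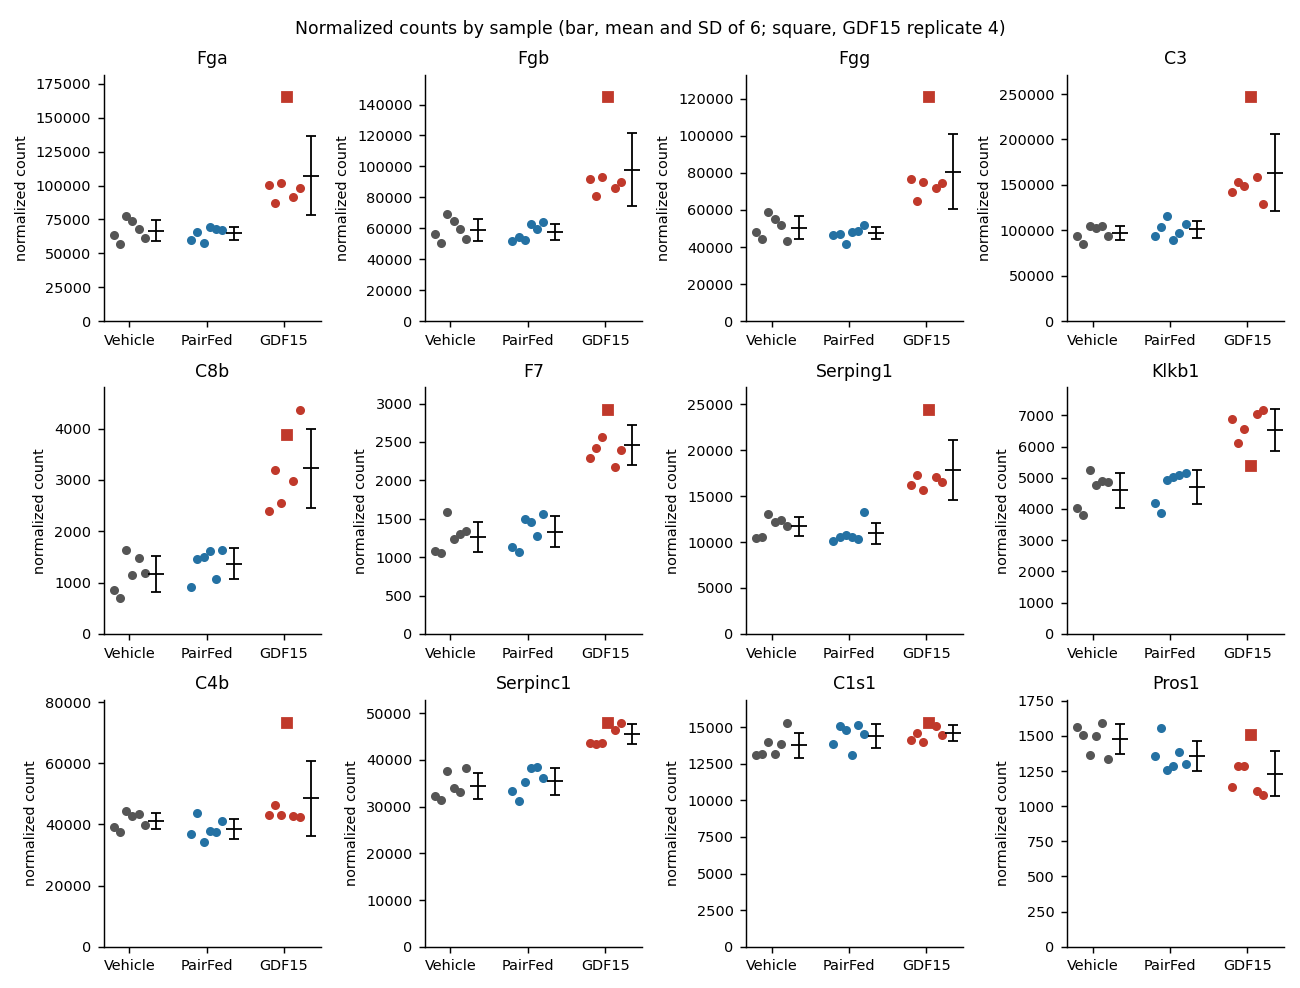
Normalized counts (y axis, from 0) of 12 members in each liver, with the mean and SD of 6 livers beside each group and GDF15 replicate 4 as a square. The GDF15 points of Fga, Fgb, Fgg, C3, C8b, F7, Serping1, Klkb1 and Serpinc1 lie above all others, the squares of C4b and the fibrinogen chains stand alone, while Serpinc1 and C4b turn to −0.04 and −0.09 against PairFed on the hepatocyte scale, C1s1 overlaps throughout, and Pros1 points lie mostly low with GDF15.

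Of the 4 anticoagulant genes, Proc, Serpinc1 and Serpind1 rose in both comparisons and Pros1 fell against Vehicle, whereas on the hepatocyte scale only Pros1 passed, lower in both comparisons. Serpinc1, antithrombin, was at 31488 to 38242 in Vehicle livers (median 33522), 31119 to 38417 in PairFed livers (median 35735) and 43518 to 47983 in GDF15 livers (median 45058), and rose by 0.40 ± 0.06 against Vehicle (adjusted p = 1.04e-08) and 0.36 ± 0.06 against PairFed (adjusted p = 4.87e-07). Serpind1, heparin cofactor II, was at 7296 to 9559 in Vehicle livers (median 8405), 7766 to 9534 in PairFed livers (median 8967) and 10812 to 11360 in GDF15 livers (median 11106) and rose by 0.41 ± 0.06 against Vehicle (adjusted p = 6.58e-09) and 0.34 ± 0.06 against PairFed (adjusted p = 2.51e-06). Proc, protein C, was at 7989 to 9753 in Vehicle livers (median 8947), 7642 to 9755 in PairFed livers (median 9005) and 11013 to 11849 in GDF15 livers (median 11715) and rose by 0.38 ± 0.06 against Vehicle (adjusted p = 6.61e-08) and 0.38 ± 0.06 against PairFed (adjusted p = 1.44e-07). None of the 3 overlapped with the other groups, and on the hepatocyte scale their values lay between −0.07 and 0.01.

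Pros1, protein S, the cofactor of protein C, went the other way. It was at 1333 to 1595 in Vehicle livers (median 1505), 1255 to 1555 in PairFed livers (median 1332) and 1078 to 1507 in GDF15 livers (median 1209). The log2 fold changes were −0.26 ± 0.08 against Vehicle (adjusted p = 0.0064) and −0.14 ± 0.08 against PairFed (adjusted p = 0.202). GDF15 replicate 4 held the highest value of its group, and without it Pros1 was lower in both comparisons, by −0.33 and −0.20 (adjusted p = 0.0234 for the second). On the hepatocyte scale it was lower by −0.68 and −0.56. Against its partner Proc, the log2 count ratio of Pros1 was −2.58 ± 0.179 (SD, n = 6) in Vehicle livers, −2.71 ± 0.233 in PairFed livers and −3.24 ± 0.195 in GDF15 livers. Its range of −3.46 to −2.90 with GDF15 did not reach that of Vehicle (−2.84 to −2.35) and just met that of PairFed (−2.91 to −2.30). Unlike most members, Pros1 is also made by endothelial cells and macrophages. Against Vehicle, macrophage markers fell for 8 of 11 genes (median log2 fold change −0.65), and of 7 endothelial markers 1 rose and 1 fell (median −0.07). Their part in the Pros1 level was not tested.

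The 4 genes of fibrinolysis rose in both comparisons, and on the hepatocyte scale Plg and Serpinf2 stayed higher in both while Cpb2 turned to −0.04 against Vehicle. Plg, plasminogen, the zymogen of plasmin, was at 31528 to 44326 in Vehicle livers (median 38658), 34951 to 41606 in PairFed livers (median 38851) and 52401 to 69284 in GDF15 livers (median 54236). The GDF15 livers lay above all others and the log2 fold changes were 0.57 ± 0.09 against Vehicle (adjusted p = 4.08e-09) and 0.56 ± 0.09 against PairFed (adjusted p = 1.54e-08). Serpinf2, the plasmin inhibitor alpha-2-antiplasmin, was at 10256 to 13737 in Vehicle livers (median 11482), 10335 to 12483 in PairFed livers (median 11379) and 14946 to 23120 in GDF15 livers (median 16587). It rose by 0.59 ± 0.10 against Vehicle (adjusted p = 9.96e-08) and 0.62 ± 0.10 against PairFed (adjusted p = 2.89e-08).

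Hrg, histidine-rich glycoprotein, which binds plasminogen and heparin, was at 11823 to 17104 in Vehicle livers (median 15268), 12620 to 16824 in PairFed livers (median 15506) and 17877 to 23326 in GDF15 livers (median 21675). The GDF15 livers lay above all others, and Hrg rose by 0.52 ± 0.11 against Vehicle (adjusted p = 3.25e-05) and 0.48 ± 0.11 against PairFed (adjusted p = 1.57e-04). Cpb2, the carboxypeptidase that protects fibrin from lysis, was at 4848 to 5928 in Vehicle livers (median 5203), 4749 to 5239 in PairFed livers (median 5047) and 5639 to 10452 in GDF15 livers (median 6367). Only 4 GDF15 livers exceeded all Vehicle livers, while all 6 exceeded the PairFed livers. Its log2 fold changes were 0.38 ± 0.12 against Vehicle (adjusted p = 0.00674) and 0.46 ± 0.12 against PairFed (adjusted p = 8.27e-04), and 0.22 and 0.31 without GDF15 replicate 4.

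One GDF15 liver weighed on many of these values. Replicate 4 was the highest of all 18 livers for 27 of the 43 members, replicate 6 for 10. Relative to the Vehicle mean, C3 was up by 1.35 on the log2 scale in replicate 4 and by at most 0.72 in the other GDF15 livers. Fga was up by 1.32 against at most 0.62, Serping1 by 1.06 against at most 0.57, C4b by 0.84 against at most 0.18 and Cpb2 by 0.98 against at most 0.37. The genes C8g, Serpind1, Proc and Klkb1 did not follow this pattern, with replicate 4 at 0.46, 0.41, 0.35 and 0.24, under at least 1 other GDF15 liver. Without replicate 4, 31 members rose and 1 fell against Vehicle, with a median log2 fold change of 0.33, and 29 rose and 1 fell against PairFed, with a median of 0.30. The calls of C2, C8a and Mbl1 against Vehicle and of Mbl2 against PairFed were lost, and that of Pros1 against PairFed was gained.

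**Figure D3:**
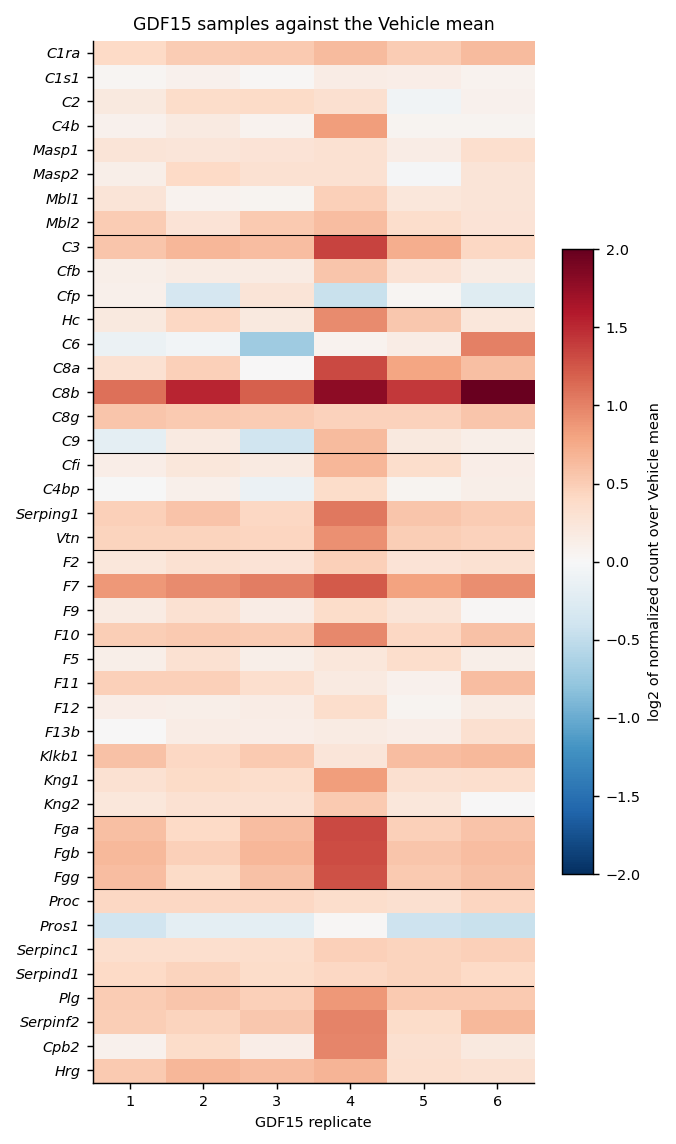
Log2 of the normalized count over the Vehicle mean (colour, −2 to 2, DESeq2 size factors) for the 43 genes (rows, grouped by role) in the 6 GDF15 livers (columns). The column of replicate 4 is darkest for C3, C8a, C4b, Serping1, Vtn, Cpb2 and the fibrinogen chains, C8b and F7 are raised in all 6 livers, and Pros1 is near or under 0 in all.

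Pair-feeding alone gave no call among these genes. In PairFed against Vehicle, DESeq2 called 0 of 43 members (0% of all 16245 genes), 0 had an unadjusted p under 0.05, and edgeR gave 0 at both thresholds. Log2 fold changes ran from −0.12 to 0.23 with a median of 0.021. The lowest unadjusted p belonged to Masp1 (0.0551). For C8b the value was 0.23 ± 0.20 and for Fga −0.04 ± 0.13. These misses do not show that the levels were equal, and changes of the size of an SE would not be seen with 6 livers.

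Genes of the same cascades outside the list were mixed. Of 32 other complement genes, 7 rose and 10 fell against Vehicle, and 7 rose and 9 fell against PairFed, while on the hepatocyte scale 2 were higher and 20 lower against Vehicle. The C1q chains, which macrophages make, fell by 0.56 (C1qa), 0.72 (C1qb) and 0.56 (C1qc) against Vehicle.

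Cfd, C3ar1 and Itgax were lower against Vehicle by more than 1 on the log2 scale, the fold rule of the study, and also had a mean count of at least 50, a minimum added here. Cfd, factor D, which cleaves factor B and is best known from fat cells, was at 43.3 to 277 normalized counts in Vehicle livers, 30.2 to 166 in PairFed livers and 8.44 to 13.3 in GDF15 livers. Its log2 fold changes were −3.58 ± 0.46 against Vehicle (adjusted p = 6.41e-13) and −2.82 ± 0.46 against PairFed (adjusted p = 4.68e-08). The adipocyte markers Adipoq, Plin1 and Retn reached at most 1.16, 4.54 and 2.27 normalized counts in any liver. None was called, and at such counts group differences cannot be read. C3ar1, the receptor of C3a, was at −1.03 ± 0.29 and −0.76 ± 0.29, and Itgax, the CD11c chain of complement receptor 4, at −1.66 ± 0.27 and −1.44 ± 0.27.

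Of 28 other coagulation and fibrinolysis genes, 3 rose and 10 fell against Vehicle, and 3 rose and 12 fell against PairFed, while on the hepatocyte scale 17 and 18 were lower and none of the 3 that rose was called. The 3 were Proz, Serpinf1 and Pzp. Proz, protein Z, a vitamin K dependent plasma protein, rose by 0.48 and 0.42, and by 0.08 and 0.01 on the hepatocyte scale without passing. The genes that fell included activators and receptors of plasminogen. Plau, urokinase, was at −1.22 ± 0.21 against Vehicle and −0.84 ± 0.22 against PairFed. Anxa2, a cell surface site for plasminogen, fell most, from 1554 to 3659 in Vehicle livers and 815 to 3125 in PairFed livers to 283 to 470 in GDF15 livers, with log2 fold changes of −2.79 ± 0.32 (adjusted p = 2.16e-15) and −2.30 ± 0.32 (adjusted p = 1.75e-10). Thbs1, thrombospondin of platelets and stroma, was at −1.54 ± 0.40 and −1.22 ± 0.40.

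Of 7 genes of the vitamin K cycle and of coagulation factor secretion, 4 rose against Vehicle and 3 against PairFed, whereas on the hepatocyte scale 4 and 5 were lower. Vkorc1, the vitamin K epoxide reductase, rose by 0.34 and 0.33 and Ggcx, the gamma-carboxylase, by 0.25 and 0.27, and on the hepatocyte scale they stood at −0.06 and −0.16 against Vehicle without passing. Of 16 regulators of hepatocyte secreted genes, 7 rose against Vehicle and 6 against PairFed, whereas on the hepatocyte scale 1 was higher and 4 lower against Vehicle and 2 higher and 5 lower against PairFed. Il6ra, the interleukin-6 receptor, rose by 0.99 in both and stayed higher on that scale, by 0.57 and 0.61. Hnf4a, a factor that maintains hepatocyte identity and is one of the 12 scaling genes, rose by 0.54 and 0.52. Stat3 rose by 0.48 and 0.79, and on the hepatocyte scale was at 0.06 and 0.36. Il6ra and Stat3 were highest in GDF15 replicate 4, at 2066 and 4902 normalized counts, with at most 1507 and 4199 in the other GDF15 livers. GDF15 livers overlapped Vehicle and PairFed livers for Il6ra and Vehicle livers for Stat3. Socs3, of the same list, was not called, at 0.46 ± 0.42 against Vehicle and 0.66 ± 0.42 against PairFed.

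Markers of other liver cells moved with the groups. Macrophage and Kupffer cell markers fell for 8 of 11 genes against Vehicle and 7 of 11 against PairFed, and summed to 216 to 500 CPM in Vehicle livers, 222 to 388 in PairFed livers and 128 to 274 in GDF15 livers. The Kupffer cell markers Clec4f, Timd4 and Marco were called in neither comparison. They stood at 0.15, 1.03 and 0.73 against Vehicle and at −0.01, 0.55 and 0.71 against PairFed. Their SEs were 0.18, 0.45 and 0.79 in each comparison. Cd5l of the same list was called lower in both, at −0.43 ± 0.18 (adjusted p = 0.0496) and −0.45 ± 0.18 (adjusted p = 0.0469). Stellate cell and fibroblast markers fell for 7 of 8 and 6 of 8, with sums of 382 to 737, 354 to 597 and 175 to 283 CPM. Cholangiocyte markers fell for 5 of 5 and 1 of 5, with sums of 112 to 466, 105 to 320 and 45.2 to 89.6 CPM. These sums were mostly Spp1, whose mean was 3080 normalized counts, beside 45.3 to 124 for the other markers of that list. Spp1 was also the only one called against PairFed (−1.36 ± 0.36, adjusted p = 0.00133). Markers that fell by more than 1 on the log2 scale against Vehicle at a mean count of at least 50 were Gpnmb (−2.60), Itgax (−1.66) and Trem2 (−1.52) of macrophages, the collagens Col1a1 and Col3a1 (−2.51 and −2.21), Spp1 (−1.99), Epcam (−1.22), Krt19 (−1.03) and Lyz2 (−1.01). Hepatocyte markers rose for 9 of 12, with the highest values in Tat (1.40), which breaks down tyrosine, and the urea cycle enzyme Cps1 (1.06), which were 0.92 and 1.04 without GDF15 replicate 4, and summed to 108162 to 116638, 95595 to 126187 and 123160 to 138120 CPM. The part of this shift in the rise of the 43 genes was not tested, beyond the hepatocyte scale given beside each class.

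**Figure D4:**
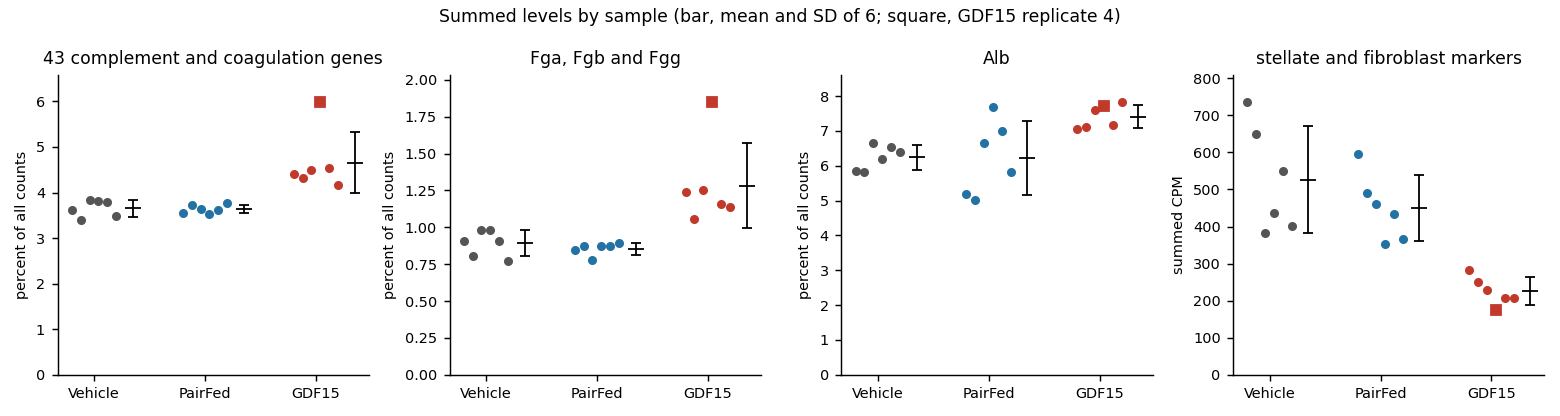
Share of all counts (percent, y axis from 0) taken by the 43 genes, the fibrinogen chains and Alb, and summed CPM of stellate cell and fibroblast markers, in each liver, with the mean and SD of 6 and GDF15 replicate 4 as a square. GDF15 livers lie above all others in the first 2 panels, overlap PairFed livers for Alb, and lie below all others for the stellate and fibroblast markers.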

How the data were processed

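Liver libraries (directional kit, total RNA) were trimmed by the authors with Trim Galore and quantified with Salmon against mm10, versions not given in the sources used here. The deposited table holds estimated counts as whole numbers, unscaled, for 16245 gene symbols, with a lowest row total of 5. All 18 columns were used, with groups from the sample labels. Totals of 16508864 to 35301853 counts set a floor of 3 counts at 0.0850 to 0.182 CPM, which covers counting error only.

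Counts were fitted with DESeq2 (1.42.0, R 4.3.3), the tool of the study, with all 18 samples, group as the factor, Wald tests on unshrunken fold changes, and size factors by median of ratios. A gene was called at a Benjamini-Hochberg adjusted p under 0.05 over all genes. No sample was dropped or imputed. edgeR (4.0.16, quasi-likelihood, 12992 genes), TMM sizes, size factors from 12 hepatocyte markers, filters, subsets, a replicate block and leaving out each library were alternatives. The fit was tested on simulated data, where DESeq2 recovered most of the set changes and made more false calls than its nominal rate. No libraries of a group agreed within sampling noise.

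The rule for members uses no measured value, but the members and lists were chosen with earlier results of these data known. All members are named, with group ranges for those called in both GDF15 comparisons, for those called in either with an absolute log2 fold change over 0.5 and for the 3 highest. Other genes were named past both thresholds at a mean count of at least 50. Some genes that meet these rules are not reported here. Further genes named from the other lists, the gene ratios shown and the background of abundant genes were chosen after values were seen. Positions are from GENCODE vM21 (GRCm38) and promoters from RefSeq. CPM per kb uses the longest transcript of each gene. Marker lists of endothelial cells, lymphocytes, platelets, red cells and neutrophils are given in the closing observations.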

Additional observations from a re-analysis of the deposited data

Results flagged for a closer look

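In 16 of 129 sets of 6 livers (43 genes in 3 groups), the highest or lowest liver stood further from its neighbour than Dixon's test at 95% allows, where chance gives about 1 in 20 (6.45 of 129). GDF15 replicate 4 accounted for 14 of them, each time as the highest liver of its group. For complement genes its normalized counts were 246823 for C3, 73250 for C4b, 17991 for Cfi, 24402 for Serping1 and 66878 for Vtn. For coagulation genes they were 49182 for F2, 14640 for F10, 13338 for F12, 165347 for Fga, 144899 for Fgb, 121091 for Fgg and 57281 for Kng1. For genes of fibrinolysis they were 69284 for Plg and 10452 for Cpb2. These 14 share 1 library and are not separate events. In GDF15 replicate 6, C6 stood apart as the highest at 4612, and in PairFed replicate 6, Serping1 stood apart at 13261.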

How the results depend on the processing

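The count of members higher with GDF15 stayed within 1.5 times under most alternatives: against Vehicle and PairFed it was 33 and 29 in edgeR, 34 and 30 with TMM sizes, 34 and 30 with a filter at 10 counts, 34 and 29 without independent filtering, 35 and 30 with only the 12 livers compared, 26 and 28 with replicates 1 to 3 and 27 and 24 with replicates 4 to 6. Against PairFed it was 29 with the 3 smaller and 22 with the 3 larger PairFed libraries. Leaving out 1 library at a time gave 31 to 34 and 28 to 31 higher and 1 to 1 and 0 to 1 lower. Without GDF15 replicate 4, 1 member (Pros1) was lower against PairFed. The call of Pros1 against Vehicle was lost with replicates 1 to 3 and with replicates 4 to 6 (0 lower each), and with the fold threshold 1 member was higher in each comparison and 0 lower. Size factors from hepatocyte markers gave 11 higher and 11 lower against Vehicle and 10 higher and 13 lower against PairFed. Over all genes, 9845 and 9781 were called in either direction with them.

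On that scale the log2 fold change turned negative against Vehicle for C2 (−0.184), Cfb (−0.164), Cfi (−0.118), C4bp (−0.316), C1s1 (−0.321), Masp1 (−0.151), Masp2 (−0.172), Mbl1 (−0.181), F2 (−0.093), F5 (−0.201), F9 (−0.195), F11 (−0.034), F12 (−0.241), F13b (−0.250), Proc (−0.014), Kng2 (−0.135) and Cpb2 (−0.039). Against PairFed it did so for C2 (−0.275), C4b (−0.094), Hc (−0.053), Cfb (−0.179), Cfi (−0.088), C4bp (−0.317), C1s1 (−0.396), Masp1 (−0.270), Masp2 (−0.245), Mbl1 (−0.228), Mbl2 (−0.098), F2 (−0.067), F5 (−0.249), F9 (−0.188), F11 (−0.101), F12 (−0.236), F13b (−0.260), Proc (−0.020), Serpinc1 (−0.042), Serpind1 (−0.066), Kng1 (−0.004) and Kng2 (−0.118). These lists hold members called on either scale. Of those called on neither, C4b (−0.18), C6 (−0.28) and C9 (−0.30) also turned negative against Vehicle. Against PairFed, C6 (−0.44), C8a (−0.04) and C9 (−0.22) did so. All these signs follow from the scale itself, which lowers the median of all genes. Whether the hepatocyte markers or the median gene are the better reference was not tested.

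The labels share replicate numbers between groups, but in no pair of groups did the deviations of all 6 same-numbered livers correlate above 0.1, so they were not taken as paired. The correlations ran from −0.277 to 0.237 for GDF15 with Vehicle, from −0.288 to 0.206 for GDF15 with PairFed and from 0.0303 to 0.617 for PairFed with Vehicle, where the mean was 0.211. With the replicate block, 34 members were higher and 1 lower against Vehicle (median 0.389) and 31 higher and 0 lower against PairFed (median 0.343). Under the block C8a and Mbl1 were no longer called against Vehicle, Masp2 and F13b were called higher against Vehicle, and F13b against PairFed. Depth limited none of the members, whose lowest library stood far above the floor of 3 counts. Whole liver, 6 animals a group and gene symbols without isoforms set the limits of these values.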

Other observations

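Acute phase genes outside the list were read in GDF15 replicate 4 after its values had been seen. Saa1, a serum amyloid A gene of the acute phase, was at 68458 normalized counts in that liver, against 407 to 11370 in the other 5 GDF15 livers, 2933 to 5779 in Vehicle livers and 2018 to 4039 in PairFed livers. Saa2 was at 66104, 38.3 times the median of the other 5. Orm2, an orosomucoid, was at 4365 (12.9 times) and Lcn2, lipocalin 2, at 7558 (13.8 times). Smaller ratios were found for Fgl1 (4.15), Apcs (3.63), Orm1 (2.85), Itih3 (2.75), Hpx (2.43), Hp (2.37) and Itih4 (2.26). Saa3 (1.24), Saa4 (1.08) and Socs3 (0.945) differed little from that median. Of the transcription factors, Cebpb stood at 5514 in that liver (1.99 times) and Stat3 at 4902 (1.47 times).

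In the other 5 GDF15 livers several of these genes were not above the Vehicle livers. Orm2 was at 113 to 838 there and at 868 to 1319 in Vehicle livers, and Hpx at 55574 to 80111 against 86981 to 105259. In contrast, Itih3 was at 16005 to 21123 in the other 5 GDF15 livers and at 11762 to 14463 in Vehicle livers, without overlap. Saa4, which is made in liver without inflammation, was at 4326 to 7559 in the other 5 GDF15 livers, above all Vehicle livers at 2838 to 3777.

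The remaining marker lists gave few calls. Many of their genes had low counts, but endothelial markers averaged at least 166 normalized counts and red cell markers at least 768. Endothelial markers had 1 of 7 higher and 1 lower against Vehicle, monocyte and neutrophil markers 2 of 6 lower, lymphocyte markers 1 of 6 higher, platelet markers 1 of 5 lower, red cell markers 0 of 3 and adipocyte markers 0 of 3. Against PairFed the counts were 1 lower for endothelial, 2 lower for monocyte and neutrophil, 2 lower for lymphocyte and 0 for the other 3 lists. No monocyte and neutrophil marker had a positive sign in either comparison, with median log2 fold changes of −0.64 and −0.66. On the hepatocyte scale 4 endothelial markers were lower against Vehicle and 7 against PairFed. Monocyte and neutrophil markers were lower on it for 3 and 4 of 6, and lymphocyte markers for 2 of 6 in each comparison. Platelet markers were lower for 2 of 5 and red cell markers for 1 of 3 in each.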
